A study of Mus musculus with 6 samples.

Results

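CD8+ TRLs, regulatory-like T cells sorted as CD8+CD122+CD49d low, were sequenced from the blood of sham-operated mice in 2 libraries, called library 1 and library 2 here after their replicate numbers. They are 2 of the 6 samples of the series, taken by the sham blood label alone, and the other 4, from tMCAO brain and tMCAO blood, were not used. In tMCAO the middle cerebral artery is blocked for a time, here 60 minutes, and in sham surgery the vessels were laid open under anesthesia but left unblocked. Blood was taken 3 days after surgery from wild-type males, which the labels give as C57BL/6NCrl aged 9 weeks and the study's methods as C57BL/6J. Each sample was 500 to 1000 cells from a FACS sort, lysed directly, with cDNA made by a SMART-Seq low-input kit and read as 75 bp pairs. Whether a library is 1 mouse or a pool is not given in the sources used here, so the spread between the libraries may be technical.

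CD122 is the beta chain of the receptors for IL-2 and IL-15, cytokines that keep CD8+ T cells alive and dividing without antigen. In mice, CD122+ CD8+ T cells carry features of memory T cells, and those with little CD49d, the alpha 4 integrin chain, include cells that respond to homeostatic cytokines and cells with suppressive activity. Such cells are known to carry receptors shared with NK cells and to hold ready-made transcripts for cytotoxic granules and chemokines.

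Expression is given as FPKM, the number of sequenced fragments scaled to transcript length and to the size of the library. This is meant to let levels of different genes be compared, but for some genes FPKM and counts parted ways, as given below. A gene counted as detected at 1 FPKM or more in both libraries. That held for 8451 of the 22782 lines of the table that name a single gene and have a value in both libraries, and 916 more lines reached 1 FPKM in 1 library. The median level of the detected lines was 14.1 FPKM. At the upper end, 997 lines reached 100 FPKM in both libraries and 69 reached 1000 FPKM. Counts on genes were 16939161 in library 1 and 16690639 in library 2, so that a gene without counts may still have had up to 3, or 0.177 and 0.180 CPM, counts scaled to the library total. Such limits speak for counting error alone, because copies made by PCR were not told apart.

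The libraries were alike in most genes. Over 8990 lines with a mean of at least 1 FPKM, the SD of the log2 ratio of library 1 to library 2, with 1 FPKM added to each, was 0.65, and 690 lines (7.68%) differed more than 2-fold. Across these genes, which are not independent replicates, Pearson's r was 0.954 and Spearman's rho 0.947 on the log2 scale. Of 8601 genes with a mean of at least 100 counts, 59.9% differed by more than counting noise at the 95% level, so the 2 columns are not the same reads deposited again, while a repeat preparation of 1 sample could not be told apart from separate samples. The FPKM and the counts did not always differ in the same way, because only 178 of the 690 lines also differed more than 2-fold in CPM in the same direction. Counts are therefore given beside the FPKM of some genes whose FPKM were far apart. In sorted cells measured in bulk, fewer cells of a type and less RNA per cell cannot be told apart.

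**Figure D1:**
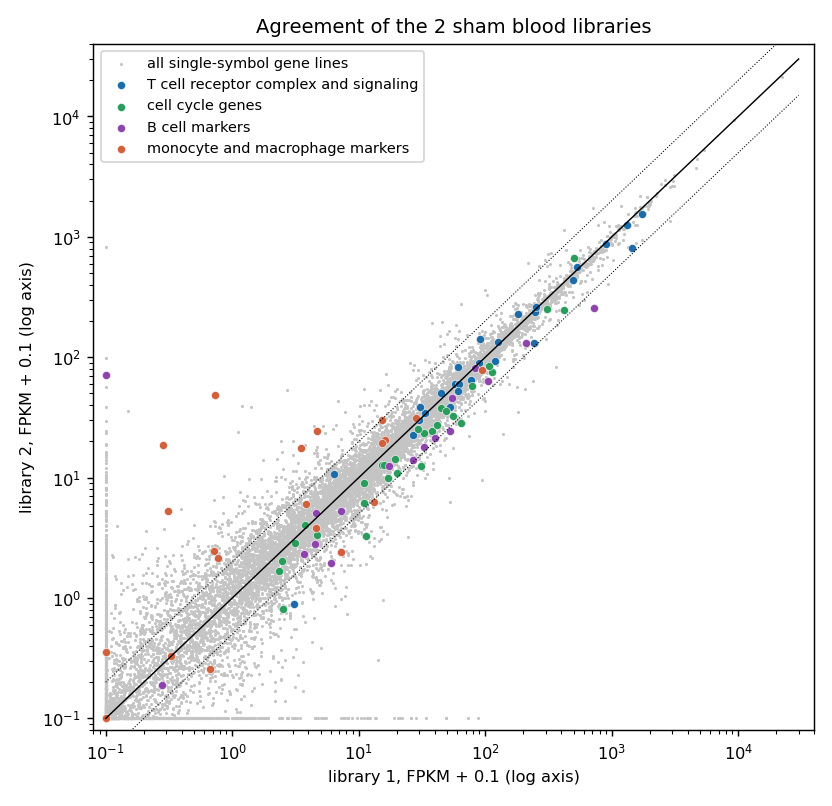
FPKM of every single-gene line in library 2 against library 1, each plus 0.1 on log axes, with T cell receptor genes, cell cycle genes, B cell markers and monocyte and macrophage markers in color; the solid line marks equal values and the dotted lines 2-fold differences. T cell receptor genes lie close to the line of equality except for a few such as *Ptprc* (1442 and 815 FPKM), most B cell and cell cycle genes lie below it, and several monocyte and macrophage markers lie far above it.

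Transcripts of actin regulation, antigen presentation and chemokine secretion led the ranking by mean FPKM. *Tmsb4x*, which encodes the actin-binding peptide thymosin beta 4 (chromosome X, 167207093 to 167209315 of GRCm38), came first with 22072 and 21161 FPKM. The line of *Ccl5*, a chemokine that memory CD8+ T cells store as transcript, came second with 11442 and 9606 FPKM, and *Ccl5* held 99.8% of its counts, the neighbor *Heatr9* the rest. Next was *B2m*, the light chain of MHC class I, with 9282 and 9411 FPKM. These 3 lines each differed by less than 1.5-fold between the libraries.

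A joined line of the *Ms4a4b* cluster followed with 8787 and 8386 FPKM, with 66.5% of its counts on *Ms4a4b* and 28.3% on *Ms4a6b*, membrane proteins of T cells. Next came ubiquitin B (*Ubb*, in a line shared with *Gm1821*, 5868 and 5526 FPKM), the long noncoding transcript *AW112010* (5369 and 5228 FPKM), and a joined MHC class I line with 94.8% of its counts on *H2-D1* (5029 and 4965 FPKM). The other places of the first 10 went to cyclophilin A (*Ppia*, 4693 and 4474 FPKM), the small surface glycoprotein *Cd52* (4662 and 3761 FPKM) and *Crip1* (3092 and 3257 FPKM). The first 10 lines together made up 11.8% of the summed FPKM in library 1 and 11.5% in library 2, and the first 30 made up 19.6% and 18.6%.

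Places 11 to 30 held surface molecules, histones and ribosomal proteins. The joined Ly6 line (3356 and 2972 FPKM) had 81.4% of its counts on *Ly6c2*, a memory-associated surface protein of mouse CD8+ T cells, and 15.8% on *Ly6a*. Ribosomal protein genes took 7 of the first 30 lines, led by *Rps18* with 3053 and 2924 FPKM, and *Rps19*, *Rpl13*, *Rpl41* and *Rpl32* were among them. Further lines were *Pfn1* and *Tmsb10*, both actin regulators, the histone variants *H3f3b* and *H2afz*, *Srgn*, *H2-K1*, *Sub1*, *Myl6*, *Gimap6*, *Ftl1* and *Gm1821* alone. *Cd74*, the invariant chain of MHC class II, stood at place 18 with 3375 and 2140.1 FPKM and is taken up with the markers of other cells.

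*Nkg7*, a granule membrane protein of cytotoxic cells, is not in that ranking because it had a line of its own in library 2 and shared one with *Cldnd2* in library 1. Its values were 5819.5 and 4855 FPKM, with 77779 and 66187 counts, as high as the lines in places 5 and 6. Of the actin regulators, *Arhgdib*, in lines that joined it with other genes, measured 3754 and 3449 FPKM, *Actb* 1657 and 2169.9 FPKM and *Cfl1*, cofilin, 1896 and 1804 FPKM. By class, cytosolic ribosomal proteins made up 11.2% of the summed FPKM in each library, and 66 of 72 single-gene ribosomal lines had a mean above 100 FPKM. The actin and cytoskeleton list made up 6.00% and 6.08%, MHC class I genes 2.71% and 2.73%, granule genes without *Nkg7* and *Gzmm* 0.838% and 0.799%, Gimap GTPases 0.718% and 0.755% and the CD3 chains 0.566% and 0.547%. No line of the FPKM table named a gene of the mitochondrial genome.

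**Figure D2:**
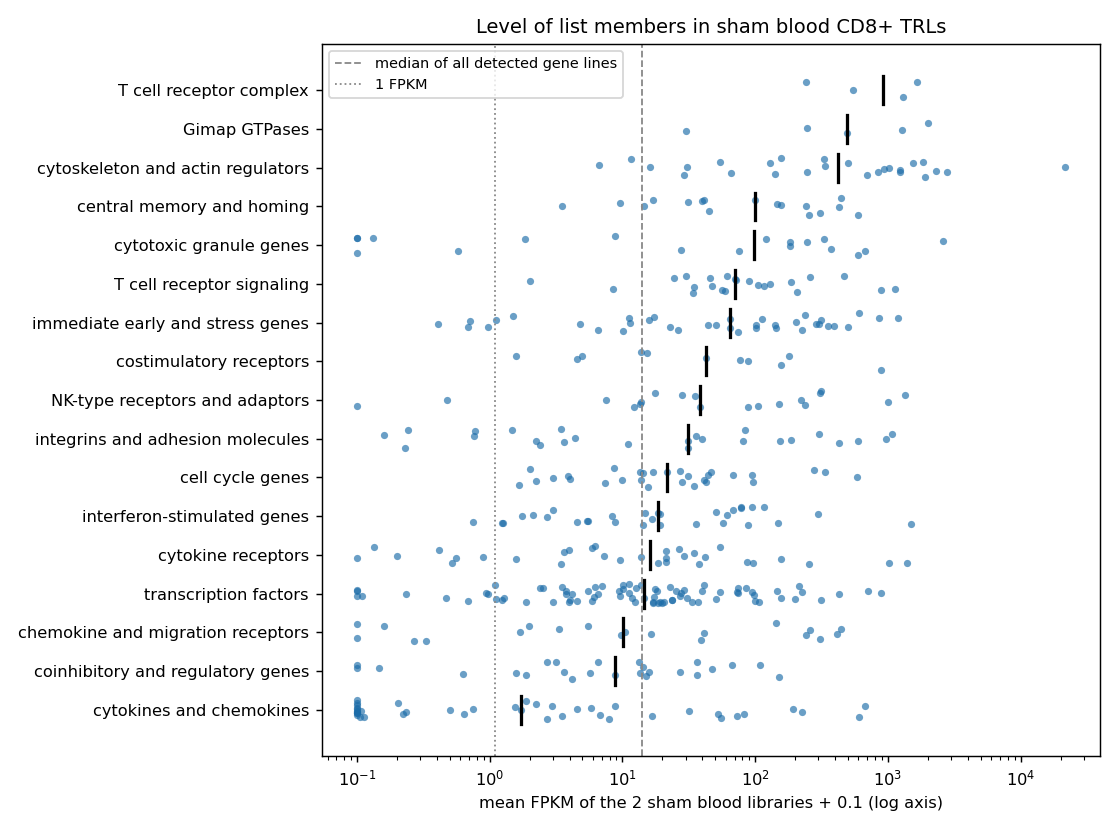
Mean FPKM of the 2 sham blood libraries plus 0.1, on a log axis, for the members of 17 gene lists that have a line of their own; each point is a gene, the black bar the median of the list, the dashed line the median of all detected lines (14.1 FPKM) and the dotted line 1 FPKM. The CD3 chains have the highest median, 919 FPKM, and cytokines and chemokines the lowest, 1.63 FPKM.

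The genes of the sort gate were all present. *Cd8b1*, the CD8 beta chain (chromosome 6, 71322788 to 71337494), measured 1538 and 1254 FPKM, and *Cd8a*, the alpha chain (chromosome 6, 71373427 to 71379173), 323 and 271 FPKM. *Il2rb*, which encodes CD122 (chromosome 15, 78479256 to 78495271), measured 149 and 165 FPKM, or 157 ± 11.1 FPKM (SD, n = 2), at place 767 of the ranking of all lines. *Itga4*, which encodes CD49d, measured 38.01 and 33.3 FPKM with 6539 and 5447 counts, so its transcript was detected although the gate takes cells with little of the protein.

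Of 7 genes with their own line that were listed as a contrast to other T cell lineages, 2 were detected and 5 stayed below 1 FPKM. The detected ones were *Cd1d1*, which presents lipids to NKT cells and does not mark them, with 40.6 and 32.1 FPKM, and *Cd40lg*, the CD40 ligand of helper T cells, with 4.34 and 4.63 FPKM. *Cd4* had 0 FPKM and 0 counts in both libraries, and *Sox13*, a gamma delta T cell factor, likewise had 0 counts. *Zbtb7b*, the factor that fixes the CD4 lineage, measured 0.440 and 0.300 FPKM, and *Zbtb16*, the factor of NKT cells, 0.0184 and 0 FPKM. *Foxp3*, the factor of CD4+ regulatory T cells, shares a line with *Ppp1r3fos* that measured 0 and 0.507 FPKM, while the count table gave it 90 and 121 counts. The mice were labelled male, and *Eif2s3y* on the Y chromosome measured 107 and 110.3 FPKM against 0 and 0.0379 FPKM for *Xist*.

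The T cell receptor itself was seen through its CD3 chains, since the table has no line for the 7 constant region genes looked for. *Cd3d* measured 1747 and 1559 FPKM, *Cd3g* 1324 and 1259 FPKM, *Cd3e* 533 and 561 FPKM and *Cd247*, the zeta chain, 245 and 237 FPKM. *Cd3d* and *Cd3g* were thus about as high as *Cd8b1* in FPKM, and each of the 4 chains differed between the libraries by less than 1.5-fold. In counts scaled to exon length and library size, the means were 1411 for *Cd3d*, 2597 for *Cd3g* and 2835 for *Cd8b1*.

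Downstream signaling genes were detected almost without exception, 22 of the 23 with a line of their own, with a median of 70.7 FPKM. *Lck*, the kinase bound to CD8, led with 1149 and 1227 FPKM in a line shared with a microRNA without counts. The adhesion receptor *Cd2* measured 902 and 881 FPKM and the adaptor *Lat*, in a line with another microRNA without counts, 493 and 464 FPKM. *Ptprc*, the phosphatase CD45, lay between *Lck* and *Cd2* by mean FPKM. It was listed at 1442 and 815 FPKM, but its counts of 58397 and 59675 were nearly equal. *Skap1* (491 and 440.5 FPKM), *Ptpn22* (253 and 263 FPKM), *Ptpn6* (182 and 229.8 FPKM) and *Txk* (242 and 130.1 FPKM, 3676 and 2681 counts) came next. *Zap70*, the kinase recruited to CD3, measured 57.8 and 59.7 FPKM, and the exception to detection was *Plcg1* with 3.01 and 0.788 FPKM and 83 and 69 counts.

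The first 300 bases around the transcription start, 250 before and 50 after, are shown from RefSeq (GRCm38.p6). The genes are the highest by mean FPKM, a gene of the sort gate, and the CD3 chain and granule gene highest by mean FPKM. In counts *Cd3g* was above *Cd3d*, with 22551 and 21470 against 19355 and 18445. The table also holds *Cd3e*, which is not shown. Capitals mark matches, on either strand, to TGTGGT (RUNX), GGAAGT (ETS), AGGTGT (T-box) or CTTTGA (TCF/LEF), short motifs of factor families known in CD8+ T cells.
*Tmsb4x*, chrX:167209169-167209468, minus strand: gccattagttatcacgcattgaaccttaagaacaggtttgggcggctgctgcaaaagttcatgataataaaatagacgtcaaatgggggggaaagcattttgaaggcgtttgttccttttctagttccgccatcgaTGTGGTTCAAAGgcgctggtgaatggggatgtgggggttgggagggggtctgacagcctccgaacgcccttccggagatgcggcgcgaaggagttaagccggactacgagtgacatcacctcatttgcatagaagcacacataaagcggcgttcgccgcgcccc
*Cd8a*, chr6:71373177-71373476, plus strand: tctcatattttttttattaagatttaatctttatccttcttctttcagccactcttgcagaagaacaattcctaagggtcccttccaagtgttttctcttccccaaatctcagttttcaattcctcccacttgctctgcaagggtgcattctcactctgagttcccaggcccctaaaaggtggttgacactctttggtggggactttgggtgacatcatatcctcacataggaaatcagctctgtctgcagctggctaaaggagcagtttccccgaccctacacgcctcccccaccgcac
*Cd3d*, chr9:44981536-44981835, plus strand: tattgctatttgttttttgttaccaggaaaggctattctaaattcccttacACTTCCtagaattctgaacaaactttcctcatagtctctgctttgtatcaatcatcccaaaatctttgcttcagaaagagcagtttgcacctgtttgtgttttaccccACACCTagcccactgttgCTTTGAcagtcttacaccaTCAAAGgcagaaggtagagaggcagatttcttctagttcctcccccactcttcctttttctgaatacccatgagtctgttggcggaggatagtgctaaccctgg
*Nkg7*, chr7:43436888-43437187, plus strand: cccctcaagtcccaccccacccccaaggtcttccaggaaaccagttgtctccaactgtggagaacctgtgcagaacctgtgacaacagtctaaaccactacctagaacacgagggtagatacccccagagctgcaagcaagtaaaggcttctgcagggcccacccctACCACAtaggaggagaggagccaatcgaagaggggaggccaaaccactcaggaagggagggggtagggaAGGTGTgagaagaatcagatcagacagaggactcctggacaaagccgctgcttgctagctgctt

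The *Tmsb4x* window held 2 matches, RUNX and TCF/LEF, which lie side by side. The *Cd8a* window held 0, so these letters are not in that window, and nothing follows from that for the factors. The *Cd3d* window held 4, of which 2 were TCF/LEF, 1 ETS and 1 T-box, and the *Nkg7* window held 2, RUNX and T-box. Of all 32851 promoter windows in the table, 16.8% held the RUNX letters, 23.8% the ETS letters, 13.7% the T-box letters and 16.003% the TCF/LEF letters, so a match is a description and not a site. A window was held for 531 of the 689 distinct genes of the lists.

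Genes of central memory and of recirculation through lymph nodes were high. All 17 with a line of their own were detected, with a median of 100.5 FPKM against 14.1 FPKM over all detected lines. *Ccr7*, the receptor that brings T cells into lymph nodes, measured 435 and 449 FPKM. *Klf2*, a factor of quiescence and recirculation, measured 420.5 and 442 FPKM and its target *S1pr1*, the receptor for exit from lymphoid tissue, 212 and 269.6 FPKM.

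Cytokine and survival genes of memory cells were present alongside. *Il7r*, the IL-7 receptor alpha chain, measured 236 and 272 FPKM, *Bcl2* 34.7 and 54.5 FPKM and *Cd44*, an adhesion receptor that marks antigen-experienced and virtual memory cells, 28.6 and 33.9 FPKM. The stem-like memory factors *Tcf7* and *Lef1* measured 146 and 144 FPKM and 90.9 and 110.0 FPKM. *Cxcr3*, a receptor for interferon-induced chemokines, measured 329.6 and 287 FPKM, *Cd28* 135 and 178 FPKM and *Cd27*, in lines that joined it with other genes, 256 and 207 FPKM. Lower members were *Id3* (44.9 and 36.7 FPKM), *Satb1* (36.4 and 42.4 FPKM), *Eomes* (16.4 and 17.3 FPKM), *Foxo1* (14.7 and 13.96 FPKM), *Myb* (6.42 and 12.5 FPKM) and *Bach2* (2.84 and 3.95 FPKM). Of the 17, 13 were higher in library 2, where the median log2 ratio of library 1 to library 2 over 8990 lines was -0.009.

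**Figure D3:**
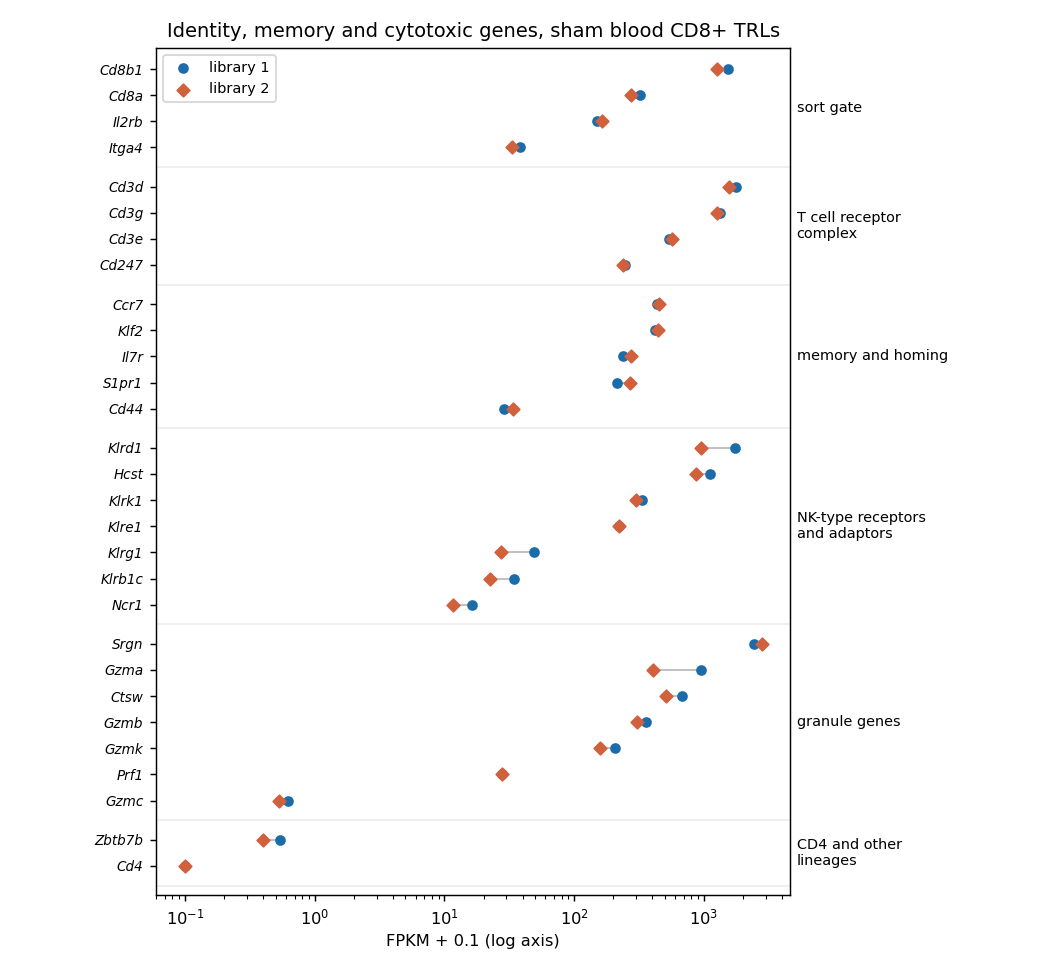
FPKM plus 0.1 on a log axis in library 1 (circles) and library 2 (diamonds) for genes of the sort gate, the CD3 chains, memory and homing, NK-type receptors, granules and other lineages. The sort gate, CD3 and homing genes have both points close together, *Klrd1* (1729 and 944 FPKM) and *Gzma* (939 and 403 FPKM) have them farthest apart, and *Cd4* lies at 0.

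Several receptors and adaptors shared with NK cells reached levels within the range of the CD3 chains. *Klrd1*, which encodes CD94, measured 1729 and 944 FPKM with 13817 and 12801 counts, so the libraries were closer in counts than in FPKM. Its partner *Klrc1*, which encodes the inhibitory NKG2A chain, held 97.3% of the counts of a line shared with *Klrc2* and *Klrc3* at 559 and 506 FPKM. *Klrk1*, the activating receptor NKG2D, measured 329.8 and 302 FPKM and its signaling adaptor *Hcst*, DAP10, 1118 and 872 FPKM.

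The Ly49 receptors, which recognize MHC class I in mice, could mostly not be separated in the FPKM table, where all but *Klra2* (4.996 and 9.895 FPKM) and *Klra17* (0 in both) shared lines that differed between the libraries. In the count table the 18 Ly49 symbols had 10033 and 10533 counts, or 592 and 631 CPM. *Klra7*, Ly49G, held 57.2% of them with 5968 and 5798 counts, *Klra1*, Ly49A, 17.7% with 1534 and 2103 counts, *Klra9* 9.64% and *Klra3* 9.34%. *Klra8*, the activating Ly49H, and *Klra4*, Ly49D, had 0 counts in both libraries. Reads of such near-identical genes can be split or dropped by the counting, so these shares are uncertain.

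Other members spread over a wide range. *Klre1* measured 221 and 221 FPKM, *Cd160* 203 and 98.9 FPKM with 5148 and 4704 counts, *Slamf7* 120.5 and 90.8 FPKM, *Cd226* 103 and 74.02 FPKM, *Klrg1*, a marker of effector differentiation, 49.2 and 27.4 FPKM and *Crtam* 28.4 and 41.7 FPKM. Genes used to tell NK cells from T cells were lower, with *Klrb1c*, NK1.1, at 34.2 and 22.1 FPKM, *Ncr1*, NKp46, at 16.1 and 11.5 FPKM and *Itga2*, CD49b, at 0.270 and 0.0113 FPKM. The adaptors *Fcer1g* (294 and 321 FPKM) and *Tyrobp* (198 and 275 FPKM), which NK cells share with myeloid cells, were higher in library 2, where *Cd14* and *Chil3* were higher too, and the part of myeloid cells in them was not tested. Of 19 members with their own line 17 were detected, and *Klrb1b* (0.526 and 0.222 FPKM) and *Klra17* (0 counts in both) were not.

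Granule genes were those of a cell with transcripts of killing at hand, but not of every granzyme. *Srgn*, the proteoglycan that packs granule proteins, measured 2441 and 2773 FPKM and *Ctsw*, a cathepsin of cytotoxic cells, 670.4 and 511 FPKM. *Gzma* measured 939 and 403 FPKM with 13191 and 5824 counts, *Gzmb* 355 and 304 FPKM, *Gzmk* 208 and 157 FPKM and *Gzmm*, in joined lines, 127 and 192 FPKM. *Gzma* was the detected member farthest apart between the libraries, and the NK cell markers *Klrb1c* and *Ncr1* were also higher in library 1, though whether NK cells contributed was not tested.

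The pore-forming *Prf1* was lower than these 4 granzymes, at 27.5 and 27.5 FPKM, and *Fasl*, the ligand of the death receptor Fas, measured 222 and 268 FPKM. *Cst7* (392 and 355 FPKM), *Ctsc* (183 and 183 FPKM), which activates granzymes, and *Lamp1* (114 and 126 FPKM) were detected as well. *Gzmc* (5 and 7 counts) and *Gzmf* (5 and 0 counts) were below 1 FPKM, and *Gzmd*, *Gzme* and *Gzmg* had 0 counts in both libraries. In all, 13 of 18 granule genes with their own line were detected, with a median of 97.98 FPKM over all 18.

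Few cytokine genes besides *Ccl5* were abundant. *Ltb*, a lymphotoxin subunit that organizes lymphoid tissue, measured 655 and 696 FPKM and *Mif* 595 and 609 FPKM. The chemokines *Ccl4*, *Xcl1* and *Ccl3* measured 175 and 274 FPKM, 187 and 197 FPKM and 26.9 and 78.4 FPKM, with 305 and 926 counts for *Ccl3*. *Ifng*, the interferon of type 1 responses, measured 88.8 and 77.0 FPKM and *Flt3l*, a growth factor of dendritic cells, 78.2 and 68.2 FPKM.

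Regulatory and helper cytokines were low. *Tgfb1* measured 7.79 and 9.45 FPKM, *Il2* 5.22 and 8.22 FPKM and *Tnf* 0.742 and 4.98 FPKM, with 18 and 153 counts. The part of myeloid cells in *Tnf*, also higher in library 2, was not tested. *Il10*, an anti-inflammatory cytokine, measured 1.90 and 1.63 FPKM with 51 and 38 counts, and *Ebi3* and *Il12a*, which encode the subunits of IL-35, 3.13 and 2.05 FPKM and 3.88 and 2.91 FPKM. *Tgfa*, a ligand of the EGF receptor, had 0 and 1 counts. The type 2 and type 17 cytokine genes *Il5*, *Il13*, *Il17a*, *Il17f* and *Il22* had 0 counts in both libraries, as had *Il3*, *Il9*, *Il21*, *Tgfb2*, *Cd70*, *Bdnf* and *Lif*. *Csf1*, *Csf2*, *Areg* and *Tgfb3* stayed below 1 FPKM in both, with 6 and 17 counts for *Csf1*. Of 41 members with their own line, 21 were detected, 3 reached 1 FPKM in 1 library and 10 were at 0 FPKM in both.

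Chemokine and migration receptors covered a wide range of levels. *Ccr7*, *Cxcr3* and *S1pr1*, given above, were joined by *Gpr183*, a receptor for oxysterols that positions lymphocytes, with 554 and 272 FPKM and 12338 and 14574 counts, and by *Cxcr6*, a receptor of tissue-homing T cells, with 299 and 217 FPKM. *P2ry10*, in lines that differed between the libraries, measured 122 and 175 FPKM, *Gpr18* 138 and 147 FPKM and *Cxcr4* 33.3 and 48.7 FPKM. *Ccr2*, which shared its lines with other receptors, had 4222 and 4298 counts.

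The lower receptors included those of effector cells. *Cx3cr1* measured 13.1 and 6.19 FPKM, *S1pr5* 15.2 and 5.41 FPKM, *Cxcr5*, which leads cells to B cell follicles, 19.3 and 13.2 FPKM, *Ccr6* 7.48 and 3.40 FPKM and the gut receptor *Ccr9* 2.68 and 1.09 FPKM. All 5 were higher in library 1 in FPKM, and in counts too, for instance 984 and 448 for *Cx3cr1*. B cell markers were higher in the same library, and *Cx3cr1* also stands in the monocyte and macrophage list. The part of other cells in these receptors was not tested. *Ccr1* was listed at 0 and 3.21 FPKM, with 0 and 175 counts. *Ccr4*, *Ccr8* and *Ccr10* stayed below 1 FPKM, and *Cxcr1* and *Ackr3* had 0 counts in both.

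Cytokine receptor genes were led by *Il2rg*, followed by *Ifngr1*, *Il7r*, *Il2rb*, *Ifnar2* and *Il10rb*. *Il2rg*, the common gamma chain that pairs with CD122, measured 1458 and 1331 FPKM, well above *Il2rb*, whereas *Il2ra*, the alpha chain of the high-affinity IL-2 receptor, measured 2.25 and 0.722 FPKM and *Il15ra* 21.5 and 15.6 FPKM. *Ifngr1* measured 784 and 1262 FPKM, but *Ifngr2*, the other subunit of that receptor, 5.10 and 7.03 FPKM, and *Ifnar2*, of the type I interferon receptor, 90.03 and 101 FPKM. The IL-18 receptor genes *Il18r1* and *Il18rap* measured 46.6 and 37.4 FPKM and 33.7 and 24.6 FPKM, against *Il12rb1* at 0.439 and 1.14 FPKM and *Il12rb2* at 2.77 and 3.94 FPKM.

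The receptors for regulatory cytokines were in the middle. *Il10rb* measured 92.3 and 82.4 FPKM, *Il10ra* 27.5 and 14.7 FPKM with 971 and 900 counts, *Tgfbr1* 10.02 and 32.6 FPKM with 570 and 621 counts, and *Tgfbr2* 13.6 and 13.6 FPKM. *Il6st*, the shared subunit of IL-6 family receptors, measured 25.1 and 43.7 FPKM, while *Lifr*, the LIF receptor, measured 0.334 and 0.295 FPKM with 19 and 31 counts, below the level that counted as detected. *Osmr* had 0 counts in both, and *Il9r*, *Il1rl1*, *Tgfbr3* and *Ltbr* also stayed below 1 FPKM. In total 24 of 32 cytokine receptor genes were detected, with a median of 16.1 FPKM.

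**Figure D4:**
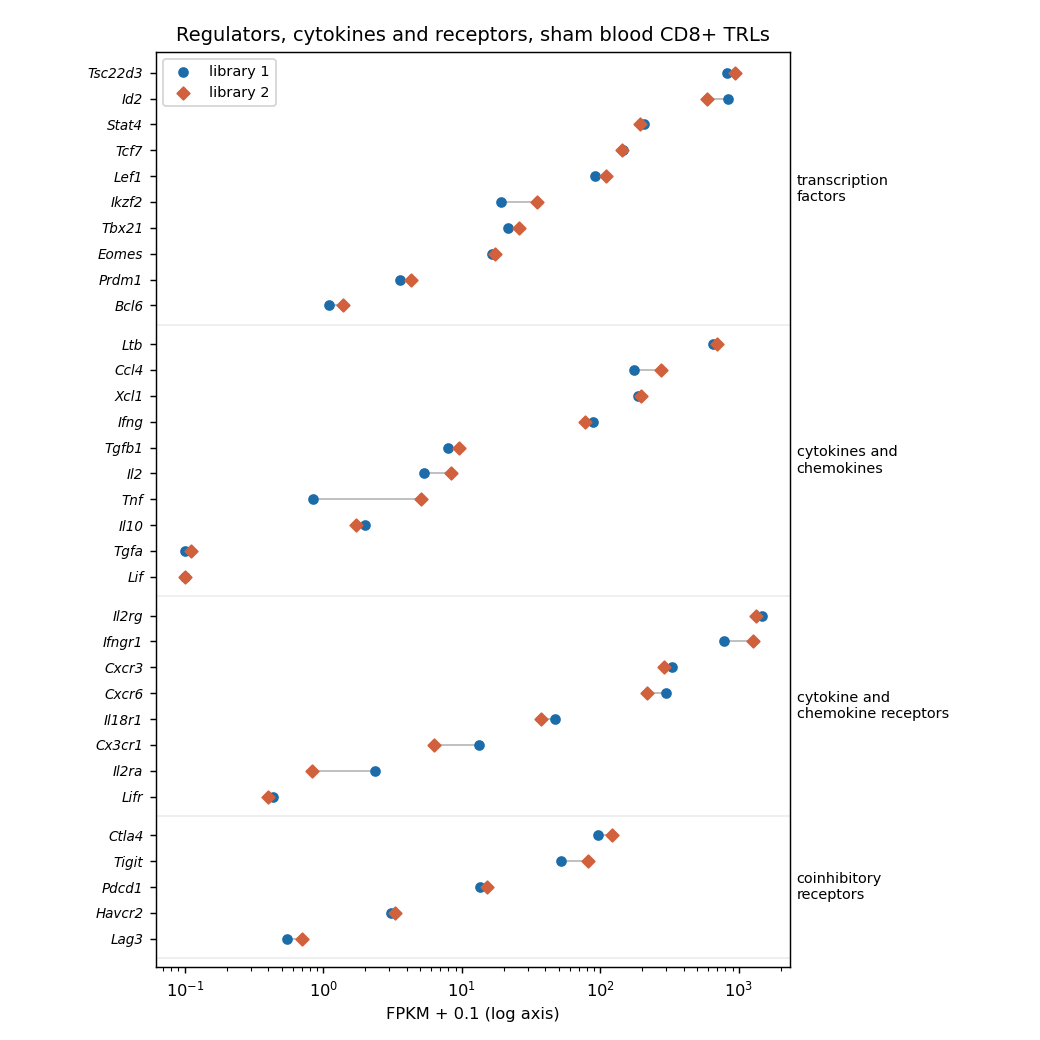
FPKM plus 0.1 on a log axis in library 1 (circles) and library 2 (diamonds) for transcription factors, cytokines and chemokines, their receptors, and coinhibitory receptors. *Tsc22d3*, *Id2*, *Ltb* and *Il2rg* lie at the high end, *Tnf* (0.742 and 4.98 FPKM) has its points farthest apart, and *Lif* lies at 0.

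Adhesion genes were led by ligands of leukocyte contact. *Cd48* measured 1222 and 942 FPKM, *Selplg*, the selectin ligand PSGL-1, 916 and 1019.7 FPKM, *Cd47*, which protects cells from phagocytosis, 433 and 427 FPKM and *Itgb1*, the beta 1 integrin that pairs with CD49d, 361 and 240.3 FPKM. *Itgb2* and *Itgal*, the chains of LFA-1, measured 163 and 144 FPKM and 31.97 and 30.4 FPKM, and *Itgb7* 85.2 and 76.1 FPKM. *Cd96*, a receptor for nectins, measured 184 and 189.5 FPKM. *Itga2*, *Itga5*, *Itgb3* and *Mcam* stayed below 1 FPKM, and 19 of 25 members were detected. *Itgae*, which encodes CD103, a marker of tissue-resident and regulatory T cells, measured 1.98 and 5.08 FPKM, with 147 and 170 counts.

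Among costimulatory receptors, the regulatory-cell gene *Tnfrsf18*, GITR, measured 174 and 188 FPKM and *Icos* 49.6 and 104 FPKM with 3204 and 4383 counts, after *Cd2* and *Cd28* given above. *Slamf6* and *Cd84*, in lines that differed between the libraries, measured 317 and 278 FPKM and 317 and 65.2 FPKM, while *Cd84* had 4173 and 4331 counts. *Tnfrsf9*, 4-1BB, measured 13.2 and 13.96 FPKM and *Slamf1* 17.4 and 12.9 FPKM. *Tnfrsf4*, OX40, shared a line of 88.4 and 156 FPKM with *Sdf4*, but held 1.11% of its counts, 49 and 79. Of the 11 with their own line, 10 were detected, the exception being *Tnfrsf14* with 2.31 and 0.645 FPKM.

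Coinhibitory genes were present at lower levels, with a list median of 8.62 FPKM. *Cd160*, given above, led it. *Ctla4* measured 96.02 and 121 FPKM, *Cd5* 44.5 and 50.7 FPKM, *Tigit* 52.1 and 81.5 FPKM, *Btla* 41.7 and 30.5 FPKM and *Nt5e*, the ectoenzyme CD73, 36.1 and 36.4 FPKM. *Pdcd1*, PD-1, measured 13.5 and 15.1 FPKM, *Havcr2*, TIM-3, 2.97 and 3.19 FPKM and *Lag3* 0.449 and 0.603 FPKM. *Ikzf4* stayed below 1 FPKM. The genes *Lrrc32* and *Gpr83*, known from CD4+ regulatory T cells, had 0 counts in both libraries. *Ctla4* and *Icos* also stand in the list of CD4+ T cell markers, of which 5 of 8 genes with their own line were detected. The summed FPKM of that list were 184 and 279.9, higher in library 2 as *Ctla4*, *Tigit* and *Icos* were. *Cd4* had 0 counts in both, and the part of CD4+ T cells in these genes was not tested.

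Transcription factors were led by regulators of quiescence and of differentiation. *Tsc22d3*, the glucocorticoid-induced GILZ, measured 819 and 944 FPKM and *Id2*, a factor of effector and NK-like lymphocytes, 831 and 587 FPKM. *Klf2* was next, then *Junb* with 292 and 335 FPKM, *Klf6* with 180.5 and 270.2 FPKM and *Ybx1* with 215 and 216 FPKM. *Stat4*, which signals from IL-12, measured 207 and 193 FPKM, *Irf1* 167 and 146 FPKM and *Batf* 106 and 106 FPKM.

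The T-box factors of memory CD8+ T cells stood in the middle of the range. *Tbx21*, T-bet, measured 21.6 and 25.7 FPKM, and *Eomes*, which drives CD122 expression, 16.4 and 17.3 FPKM. *Ikzf2*, which encodes HELIOS, measured 19.2 and 34.7 FPKM with 435 and 1028 counts, and *Tox* 33.95 and 40.5 FPKM. *Runx3*, the factor that sets CD8 lineage, was listed at 8.88 and 27.7 FPKM, but its counts of 696 and 607 were close together. *Gata3* measured 12.9 and 11.6 FPKM, and the effector and follicular factors *Prdm1* and *Bcl6* 3.48 and 4.18 FPKM and 0.994 and 1.30 FPKM.

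Of 81 factors with their own line, 68 were detected, with a median over all 81 of 14.3 FPKM, close to the 14.1 FPKM of all detected lines. *Gabpa* was listed at 0 FPKM in both libraries although it had 1075 and 1393 counts, so a value of 0 in the FPKM table need not mean that no transcript was there. *Cebpa* had 0 counts in both, while *Nr4a3* (13 and 114 counts) and *Fosb* (71 and 69 counts) stayed below 1 FPKM. The myeloid factors *Cebpb* (10.9 and 39.6 FPKM, 240 and 1011 counts) and *Spi1* (15.2 and 19.3 FPKM) and the B cell factor *Ebf1* (5.97 and 1.84 FPKM) were detected too.

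Early response genes were abundant in blood cells that had been sorted. *Cd69*, a receptor that holds T cells in tissue and appears early after activation, measured 1119.7 and 1258 FPKM, the phosphatase *Dusp1* 376 and 403 FPKM and *Fos* 54.6 and 93.6 FPKM. The chaperone *Hspa8* measured 792 and 913 FPKM, the antiproliferative *Btg1* 437 and 776 FPKM and the G protein regulators *Rgs1* and *Rgs2* 502 and 507 FPKM and 268 and 436 FPKM. Not every such gene was high, and *Egr3* and *Hspa1a* stayed below 1 FPKM. *Egr1*, induced through the T cell receptor and by many stresses, measured 3.67 and 18.6 FPKM with 217 and 1121 counts, *Nr4a1* 15.2 and 30.2 FPKM and *Atf3* 5.37 and 17.2 FPKM. Across the 8990 lines with a mean of at least 1 FPKM, the median log2 ratio of library 1 to library 2 was -0.009. The list was higher in library 2 for 32 of 37 members in FPKM and 33 of 37 in CPM. Myeloid markers were higher in the same library, and neither their part in this nor that of sample handling was tested.

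Cell cycle genes went the other way between the libraries. *Hmgb2*, a chromatin protein, was higher in library 2 by FPKM, with 505 and 665, but had 25425 and 21225 counts. The tubulin line of *Tuba1b* measured 528 and 429 FPKM and *Mcm6*, of the replication helicase, 107 and 84.2 FPKM. *Pcna*, the replication clamp, measured 305 and 249 FPKM, *Stmn1* 423 and 245 FPKM, *Birc5*, survivin, 112 and 75.8 FPKM and *Rrm2*, which makes deoxynucleotides, 64.5 and 28.5 FPKM. The mitotic genes *Top2a* and *Plk1* measured 10.9 and 6.07 FPKM and 11.3 and 3.17 FPKM, with 440 and 148 counts for *Plk1*, and *Mki67* 2.36 and 1.94 FPKM. Over the 8990 lines with a mean of at least 1 FPKM, the median log2 ratio of library 1 to library 2 was -0.009. In FPKM 27 of 29 members were higher in library 1, and in CPM 29 of 30. B cell markers and *Alas2* were higher in the same library, and the part of those cells in the cell cycle genes was not tested.

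Gimap GTPases, survival factors of lymphocytes, and the leading MHC class I genes were high. *Gimap6* measured 1884 and 2162 FPKM, *Gimap4* 1340.0 and 1233 FPKM, *Gimap3* 496 and 492 FPKM, *Gimap9* 249 and 240.1 FPKM and *Gimap8* 32.98 and 26.8 FPKM, and *Gimap1*, *Gimap5* and *Gimap7* shared a line of 882 and 834 FPKM. Beyond *B2m* and the *H2-D1* and *H2-K1* lines, *Psmb8*, a subunit of the immunoproteasome, measured 991 and 1007 FPKM, *Psmb9* 385 and 311 FPKM and *H2-M3* 123 and 109 FPKM. The peptide transporter genes *Tap1* and *Tap2* were lower, at 18.6 and 16.8 FPKM and 21.4 and 16.9 FPKM. *H2-T3* had 0 counts in both. *Nlrc5*, the activator of class I genes, was listed at 5.09 and 26.8 FPKM with 676 and 938 counts.

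Markers of other blood cells were not absent from the sorted cells. For B cells, 15 of 17 genes with their own line were detected, and their summed FPKM were 1376 in library 1 and 757 in library 2, beside 3849 and 3616 for the CD3 chains. The other 3 of the 20 B cell genes had no line, so that sum leaves them out. *Cd79a*, a chain of the B cell receptor, measured 727 and 258 FPKM with 9002 and 4661 counts, *Cd79b* 209 and 131 FPKM and *Ms4a1*, CD20, 106 and 63.7 FPKM. *Jchain*, which joins antibody subunits in plasma cells, was seen in library 2 alone, with 0 and 71.2 FPKM and 0 and 2731 counts, and *Pax5* had 3 and 1.

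MHC class II genes ran in the same direction as the B cell genes. *H2-Aa* measured 636 and 349 FPKM, *H2-DMa* 98.6 and 64.9 FPKM and the *Cd74* line 3375 and 2140.1 FPKM. The dendritic cell markers were low, with *Clec9a* and *Siglech* at 0 counts in both, *Flt3* at 1 and 13 and *Itgax* at 4.73 and 1.96 FPKM, except *Cd209a* with 248 and 0 counts. B cells, dendritic cells and monocytes all make MHC class II, and which of them carried it was not tested.

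Several monocyte and macrophage genes differed widely between the libraries. *Lyz2*, lysozyme, had 7013 and 36118 counts, *Chil3* 11 and 1381 counts, *Cd14* 1 and 576 counts and *Fn1*, fibronectin, 34 and 307 counts, all higher in library 2. *Apoe* (94.9 and 78.01 FPKM), *Cd68* (28.1 and 31.2 FPKM) and *Cybb* (16.1 and 20.4 FPKM) were nearly level. Over the 21 genes with their own line the summed FPKM were 209 and 317, and 11 were detected. The highest mean among them was 86.4 FPKM, so little of the *Lyz2* signal seen in counts is in that sum. *Ly6c2*, which CD8+ T cells also make, stands in this list but shares a joined line, so that sum leaves it out. The complement genes *C1qa*, *C1qb* and *C1qc* of tissue macrophages stayed below 1 FPKM.

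Of 14 neutrophil genes 1 was detected in both libraries, *Cxcr2* at 3.34 and 3.08 FPKM, and 8 were at 0 FPKM in both. In library 2 taken by itself 3 reached 1 FPKM, since besides *Cxcr2* the gene *Mmp8*, a collagenase, had 0 and 134 counts and *Il1r2*, a decoy receptor, 0 and 16 counts, and the summed FPKM were 5.08 and 9.58. *S100a9*, among their most abundant transcripts, had 0 counts in both libraries and *S100a8* 3 and 0. Platelet transcripts were present, with *Pf4*, platelet factor 4, at 63.1 and 68.7 FPKM and *Ppbp* at 48.8 and 55.7 FPKM.

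Red cell transcripts were higher in library 1. The alpha globin line measured 2154 FPKM in library 1 and 206 FPKM in library 2, although *Hba-a1* and *Hba-a2* had 0 counts in both. The beta globin lines were split differently in each library, into a line of 2772 FPKM in library 1 and into lines of 178 and 87.8 FPKM in library 2, and *Alas2*, the heme synthesis enzyme of erythroid cells, had 512 and 4 counts. Of the basophil, mast cell and eosinophil list 1 of 11 genes was detected, *Il5ra* at 1.81 and 2.92 FPKM but 115 and 40 counts, and none of the 12 endothelial and stromal genes. The brain list showed *Mbp*, which lymphocytes also transcribe, at 19.3 and 15.1 FPKM, with *Gfap*, *Aqp4*, *Mog* and *Snap25* at 0 counts. Most genes of the NK cell list also stand in the lists above, so NK cells cannot be told apart from CD8+ TRLs in its summed level, 1739 and 1288 FPKM.

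**Figure D5:**
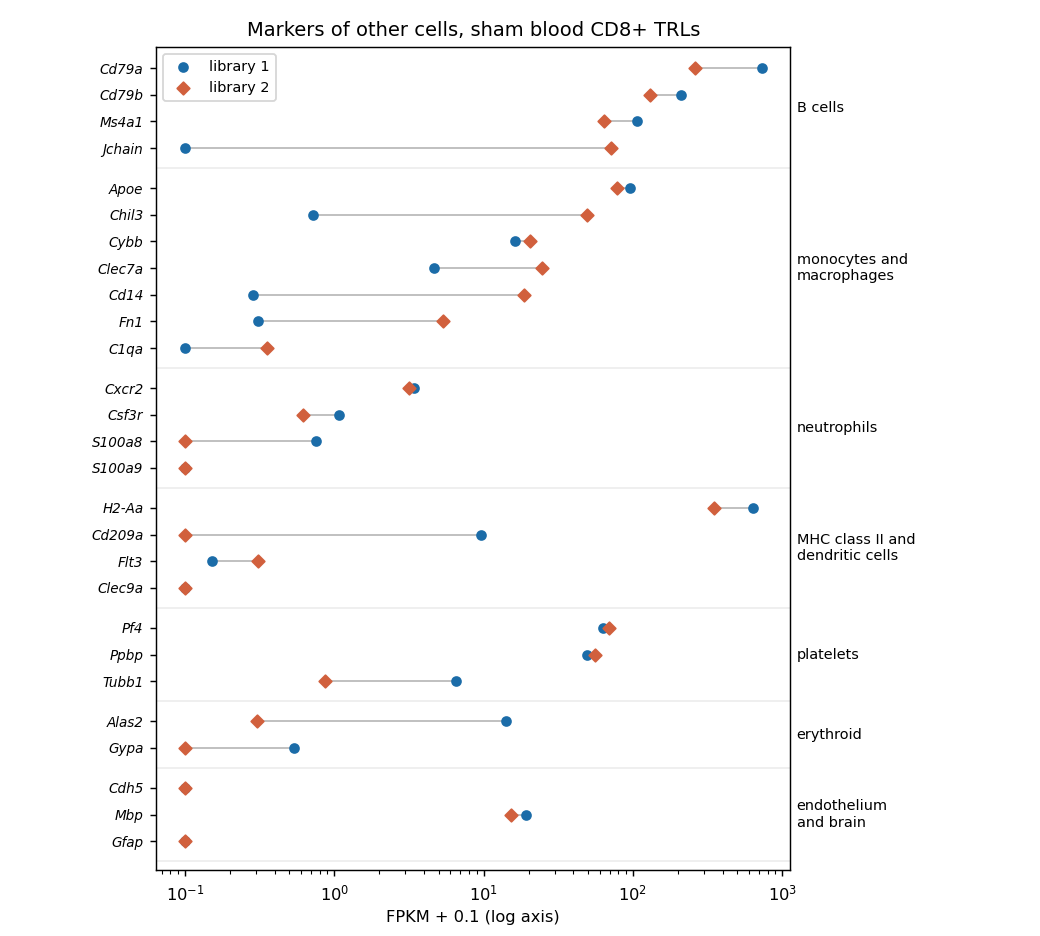
FPKM plus 0.1 on a log axis in library 1 (circles) and library 2 (diamonds) for markers of B cells, monocytes and macrophages, neutrophils, MHC class II and dendritic cells, platelets, erythroid cells, endothelium and brain. B cell genes other than *Jchain* lie higher in library 1, *Chil3*, *Cd14*, *Clec7a* and *Fn1* lie higher in library 2, and *S100a9*, *Clec9a*, *Cdh5* and *Gfap* lie at 0 in both.

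The lines farthest apart between the libraries, among those with a mean of at least 10 FPKM, were of 2 kinds. The 10 higher in library 1 were *Mirlet7i*, *Mettl5*, *Gm12338*, *Rfc4*, *Fam216a*, *Cmc4*, *Nmrk1*, *3110009E18Rik*, *Mir339* and *2310033P09Rik*, all listed at 0 FPKM in library 2, and none of them differed more than 2-fold in CPM. *Mettl5*, for example, was listed at 72.9 and 0 FPKM with 2184 and 2092 counts. The 10 higher in library 2 included *Snord83b*, *Gps2*, *Lst1*, *Snord16a*, *Mir682* and *Mfsd11*, which differed in FPKM alone, *Gps2* for instance with 0 and 97.7 FPKM but 1793 and 1959 counts. The remaining 4, *Jchain*, *Cxcl2*, *Chil3* and *Ifitm1*, also differed in CPM, with *Cxcl2*, a chemokine for neutrophils, at 0 and 709 counts and *Ifitm1* at 78 and 277 counts.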

How the data were processed

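Reads of the 2 sham blood libraries were checked with FastQC and mapped to GRCm38 (mm10) with TopHat, per the submitters' processing notes, and abundance was estimated with Cufflinks, per the study's methods; the sources used here give neither annotation release nor strandedness. The deposited tables hold, for each sample, raw counts by gene and, separately, FPKM as the authors normalized them. Of all reads in the count table, 43.0% and 43.7% lay outside annotated features and 22.0% and 21.3% had no unique position; these 5 lines and 27 lines with dates were left out. Of 24572 FPKM lines, 26 with dates and 1265 without a value in a sham library were dropped, which left 23281, 499 of them joining several symbols. Joined lines were ranked under all their symbols, but detection and list sums used single-gene lines.

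Genes were ranked by mean FPKM; lines of small RNAs or with under 50 counts in either library were left out of the first 30. Count-based levels per kilobase used GENCODE M21 exon lengths, which matched 95.7% of 24394 symbols. No test was run, since there is 1 group. The named genes are the first 30 lines, up to 6 leading members and the undetected members of each list, and the 10 lines farthest apart in each direction; others were named after their values were seen, and a few members are not reported here. The 34 gene lists and the members were chosen with earlier results of these data known. Scripts used Python 3.11.15, pandas 2.3.3, numpy 2.4.6, scipy 1.17.1 and matplotlib, and were tested on simulated counts. Alternatives were other detection limits, pseudocounts, CPM, counts per kilobase and each library alone.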

Additional observations from a re-analysis of the deposited data

Results flagged for a closer look

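Some counts lie on lines without a gene symbol. Lines that carry a date in place of a gene symbol, left out of every result above, had 65481 counts in library 1 and 64439 counts in library 2, and 15 of the 27 such lines had more than 3 counts in both libraries, the limit that a count of 0 allows. The highest of them had 27912 counts in library 1 and 25752 counts in library 2. No gene was assigned to these lines, so any gene they stand for is missing from the results above. Groups of 2 samples were not searched for outlying samples.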

How the results depend on the processing

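No paired analysis was possible because the 2 libraries belong to 1 group and no comparison between groups was made. Detection was within 1.5 times of the 8451 lines under every setting tried, from 5970 at 5 FPKM to 10881 at 10 counts in both libraries, with 8855 to 8963 for 1 library alone. List genes detected numbered 422, with 436 to 452 from 1 library and 348 to 542 under the other settings. Within lists the count of detected genes moved by over 1.5 times for 7 of 34 lists at 5 FPKM, 7 at 0.1 FPKM, 11 at 10 counts, 3 without library 1 and 2 without library 2. At 10 counts, which also reach genes of joined lines, 29 NK-type receptor genes in place of 17 and 20 MHC class I genes in place of 9 were detected, and at 5 FPKM 13 cytokine genes in place of 21 and 13 coinhibitory genes in place of 20. Lines more than 2-fold apart numbered 690, and 223 at a mean of at least 10 FPKM, where fewer lines are counted, with no value possible from 1 library. Of the first 30 lines, 13 stayed by CPM, which does not correct for length, 21 by counts per kilobase and 28 from either library alone. Shares of counts in place of FPKM were 4.07% for ribosomal proteins, 1.79% for MHC class I, 4.78% for the cytoskeleton list, 0.708% for Gimap GTPases, 0.368% for CD3 chains and 1.11% for granule genes, against means of 11.2%, 2.72%, 6.04%, 0.736%, 0.557% and 0.819% by FPKM. The counts include genes of joined lines that differ between libraries, such as *Nkg7*, and with small RNAs kept the ribosomal share was 11.1%. The log2 ratio of library 1 to library 2 was 0.86 for B cell markers, 0.49 by CPM and 0.59 by the median, -0.60 for monocytes and macrophages, -0.78 by CPM and -0.80 by the median, and 0.70 for MHC class II and dendritic cells, 0.66 by CPM and 1.27 by the median. It reversed for platelets, -0.06 by the sum and 1.11 by the median, and for basophils, mast cells and eosinophils, -1.72 by the sum and 0.56 by CPM. The cause was not tested. For monocytes and macrophages the CPM rest on 46926 and 79441 counts, of which *Ly6c2*, also made by CD8+ T cells, held 27327 and 22971. *Ly6c2* was higher in library 1 while the list sum was higher in library 2, so its counts make the CPM ratio smaller in size. The FPKM sum of that list leaves *Ly6c2* out. It also holds little of *Lyz2*, which had 7013 and 36118 counts, because its highest mean was 86.4 FPKM. A ratio with *Lyz2* and without *Ly6c2* was not computed. The log2 ratios of library 1 to library 2 cannot be had from 1 library. With 2 libraries of 500 to 1000 cells, an SD rests on a single difference.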

Other observations

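Interferon-stimulated genes were present at a modest level, with 27 of 31 single-gene members detected and a median of 18.5 FPKM. The leading members were *Ly6a*, in the joined Ly6 line, *Ly6e*, *Ifi27l2a* (819 and 1354 FPKM), *Samhd1*, *Gbp4* (242 and 237 FPKM) and *Trim30a* (193 and 204 FPKM), and the lines of *Ifi27l2a*, *Gbp4* and *Trim30a* joined other genes in 1 or both libraries. *Ly6e* measured 1191 and 1813 FPKM, the nucleotide hydrolase *Samhd1* 267 and 330.0 FPKM, the antiviral membrane protein *Ifitm3* 110.4 and 185 FPKM and *Irf7* 54.4 and 59.97 FPKM, while *Isg15* (7.01 and 9.59 FPKM), *Mx1* (4.33 and 6.56 FPKM) and *Rsad2* (2.30 and 2.92 FPKM) were lower. Glycolysis genes were led by *Gapdh* (724 and 655 FPKM), *Ldha* (640.4 and 605 FPKM), the joined line of *Eno1* (535 and 529 FPKM), *Aldoa* (401 and 404 FPKM), *Pgam1* (135 and 128 FPKM) and *Pkm* (107 and 110.0 FPKM), and *Hk3* stayed below 1 FPKM. The glucose transporters *Slc2a1* and *Slc2a3* measured 13.2 and 13.9 FPKM and 12.5 and 7.43 FPKM, and hexokinase was seen as *Hk1* (4.26 and 5.79 FPKM) more than as *Hk2* (0.374 and 0.678 FPKM). Of survival and death genes, the joined lines of *Bcl2a1b* measured 311 and 178 FPKM, *Bax* measured 104 and 122 FPKM, *Casp1* 114 and 111 FPKM, *Mcl1* 80.5 and 116 FPKM and *Fas* 54.1 and 54.0 FPKM, and *Bmf* and *Bak1* stayed below 1 FPKM.

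The FPKM and count tables part ways for some genes. With 1 FPKM or 1 CPM added, the ratio of the libraries differed by more than 1.5-fold between the tables for 50 of 455 list genes with a mean of at least 1 FPKM, and *Rac2* is an example with 714 and 1737 FPKM but 43550 and 40127 counts. A further 163 single-gene lines were listed at 0 FPKM in both libraries with 100 or more counts in each, led by *Rad9a* with 4552 and 3877 counts. In the other direction, 13 lines above a mean of 10 FPKM had 0 counts, most of them lines of near-identical genes such as the alpha globins and *Oaz1* (1541 and 1439 FPKM). The cause was not tested. Among genes with a mean of at least 10 CPM, a rule chosen after seeing the data, the largest differences in CPM were *Alas2* (512 and 4 counts), *Ttk* (318 and 58 counts) and *Hepacam2* (313 and 70 counts) toward library 1, and *Jchain* (0 and 2731 counts), *Chil3* (11 and 1381 counts) and *Cxcl2* (0 and 709 counts) toward library 2.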
